A study of Mus musculus with 3 samples.

Results

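The region upstream of *Rasgrf1* whose paternal copy is methylated was examined in spermatogonia of 3 genotypes at P7 (postnatal day 7). *Rasgrf1* (gene ID 19417) lies on the plus strand of mouse chromosome 9, at chr9:89909508-90026979 of mm10 (GRCm38) in RefSeq, with 27 exons. The control region was taken as the stretch from 20 to 45 kb upstream of the annotated start, chr9:89864508-89889507, cut into 25 windows of 1 kb, out of 2725532 such windows on the nuclear chromosomes. It holds 281 CpG sites. No RefSeq gene overlaps it. The promoter (2 kb before to 0.5 kb after the start) and the gene body beyond it served as the contrast. The curated mRNA of the gene starts 267 bp inside the annotated start.

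The cells were C57BL6/J spermatogonia sorted with an antibody to EpCAM, from WT, *Pld6* KO and *Dnmt3L* KO mice, and each genotype is represented here by 1 set of calls from whole-genome bisulfite sequencing, called a library below. *Pld6* encodes a mitochondrial protein required for making piRNAs, and *Dnmt3L* encodes a cofactor of the de novo DNA methyltransferases without catalytic activity of its own. Mice heterozygous for either mutation were counted as WT in the study, and the labels do not say which kind of WT mouse gave the library, nor how many mice stand behind a library. The study describes replicates of each genotype, which were not analysed here as separate samples, and whether a library is 1 replicate or a pool is not stated in the labels. With 1 library per genotype no test between genotypes was made, and effects of the genotype and of the individual library cannot be told apart.

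*Rasgrf1* encodes a guanine nucleotide exchange factor that loads GTP onto Ras, and it is an imprinted gene expressed from the paternal copy in the brain. The imprint is set in the male germ line, in prospermatogonia, when a region upstream of the gene becomes methylated. A direct repeat lies next to this region on the side of the gene and is needed for the methylation. Oocytes leave the region unmethylated. The piRNA pathway has been linked to the methylation of this region.

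The repeats were located in the reference sequence as the longest stretch in which bases a fixed distance apart are mostly the same. This stretch ran over 361 bp at chr9:89881060-89881420, from 28.45 to 28.09 kb upstream of the start, with a period of 40 bp, 9.03 periods and 92.8% identity between neighbouring periods. Copies are shown 5′ to 3′ on the plus strand of GRCm38, because the difference that could be read between WT and *Pld6* KO lay beside them. Capitals mark the CG sites at which methylation can be called. Copies 2 to 6 are identical in all 40 bases, whereas copies 1, 7, 8 and 9 differ from them at 6 to 12 positions. Copy 1 has 2 CG and copy 9 has none.
Repeat copy 1 (chr9:89881060-89881099): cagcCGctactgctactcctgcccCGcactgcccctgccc
Repeat copy 2 (chr9:89881100-89881139): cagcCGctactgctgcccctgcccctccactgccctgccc
Repeat copy 7 (chr9:89881300-89881339): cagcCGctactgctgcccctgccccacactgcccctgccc
Repeat copy 9 (chr9:89881380-89881419): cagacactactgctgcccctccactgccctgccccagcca

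Less perfect copies with the same period continue on the side away from the gene, and together they make a block of 1582 bp at chr9:89879935-89881516 with 34 CpG sites and a GC content of 72%. The 300 bases next to this block on its far side, chr9:89879635-89879934, are shown because they hold 30 CG and because the libraries differed there. Capitals again mark the CG.
Block beside the repeats: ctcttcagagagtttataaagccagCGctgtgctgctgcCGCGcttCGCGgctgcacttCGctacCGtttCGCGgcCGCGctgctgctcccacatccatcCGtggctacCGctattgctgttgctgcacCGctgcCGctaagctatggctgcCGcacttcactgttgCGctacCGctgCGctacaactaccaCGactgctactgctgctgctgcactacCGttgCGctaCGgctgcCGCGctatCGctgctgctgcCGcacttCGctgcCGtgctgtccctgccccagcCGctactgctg
For contrast, RefSeq's 300 bases around the start of the curated mRNA, chr9:89909525-89909824 of GRCm38 on the plus strand, lie within the promoter as defined above and hold 26 CG, in capitals.
Start of the curated *Rasgrf1* mRNA: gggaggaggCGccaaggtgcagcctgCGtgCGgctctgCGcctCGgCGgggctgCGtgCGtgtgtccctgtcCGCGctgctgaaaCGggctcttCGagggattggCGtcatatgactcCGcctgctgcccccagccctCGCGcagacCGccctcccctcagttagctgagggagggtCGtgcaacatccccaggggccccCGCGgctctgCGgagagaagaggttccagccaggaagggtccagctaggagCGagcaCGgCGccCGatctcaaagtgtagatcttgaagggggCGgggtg

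The 3 libraries held between 19289688 (*Dnmt3L* KO) and 64076569 (*Pld6* KO) calls, where a call is a methylated or an unmethylated reading of a CpG site by a read, or 0.879 to 2.92 calls per CpG site. A methylation level is the share of methylated calls among all calls of a region, from 0 to 1. Intervals in parentheses are 95% Wilson intervals for levels and 95% Newcombe intervals for differences. They cover counting error only, and they are too narrow where several calls come from the same read. The number of reads is not in the files, so the lowest number that the positions of the calls allow is given where a result rests on few calls. The targeted genes were as labelled, since the *Pld6* KO library had no call at 66 consecutive CpG sites of *Pld6* and the *Dnmt3L* KO library none at 53 consecutive CpG sites of *Dnmt3l*, at which WT had 163 and 88 calls. Maternally methylated imprints are unmethylated in male germ cells but methylated on the maternal copy in somatic cells. Within 500 bp of the RefSeq starts of genes with such imprints, levels were low in all libraries apart from *Snrpn*, which had few calls. Over 7 of them (*Kcnq1ot1*, *Snrpn*, *Peg3*, *Mest*, *Plagl1*, *Peg10* and *Airn*), the pooled level was 0.0529 in WT and 0.0725 in *Pld6* KO, against 0.0105 in *Dnmt3L* KO. The highest level among those with at least 10 calls was 0.231 at *Airn* in WT (65 calls, at least 13 reads). *Snrpn* had 2 of 2 calls methylated in WT, 4 of 7 in *Pld6* KO and no call in *Dnmt3L* KO. Its stretch held 6 CpG sites, against 26 to 78 at the other genes, and whether it covers the imprint was not tested. The part of other cells in the results was not tested.

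The control region as a whole was methylated in WT, somewhat less in *Pld6* KO and little in *Dnmt3L* KO. In WT, 274 of 420 calls were methylated, a level of 0.652 (0.606 to 0.696). *Pld6* KO stood at 0.571 (0.536 to 0.606, 445 of 779 calls), and 0.145 (0.105 to 0.198, 32 of 220 calls) was found in *Dnmt3L* KO. WT was higher than *Pld6* KO by 0.081 (0.023 to 0.137) and higher than *Dnmt3L* KO by 0.507 (0.437 to 0.567). The difference from *Pld6* KO was 0.046 (-0.017 to 0.108) at the 138 sites with calls in both libraries and 0.151 as the mean of site levels. The level was not even along the region: in WT, windows with at least 10 calls ranged from 0.0976 to 1. Among the 25 windows, 1 had no CpG site, and 17 could be compared between WT and *Pld6* KO with 10 calls or more on either side.

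**Figure D1:**
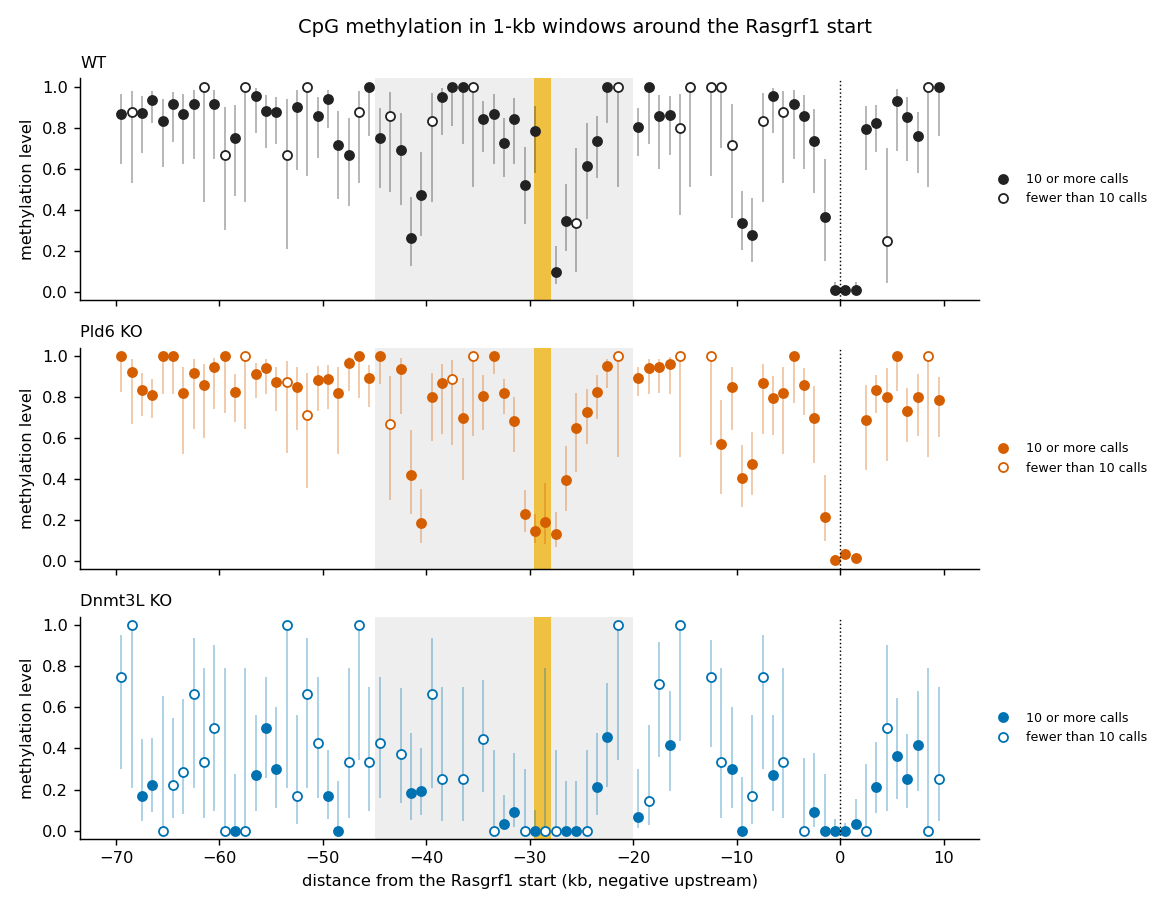
Methylation level of 1-kb windows from 70 kb upstream of the *Rasgrf1* start to 10 kb inside the gene (x axis, kb) in WT, *Pld6* KO and *Dnmt3L* KO, 1 library each. Filled points have at least 10 calls, open points fewer, bars are 95% Wilson intervals, grey marks the control region, yellow the block of repeats and the dotted line the gene start. The stretch next to the repeats on their left is high in WT and low in *Pld6* KO, whereas the stretch to their right is low in both.

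Among the sites that could be read in both, the difference between WT and *Pld6* KO was concentrated beside the repeats, on the side away from the gene. WT had no call within the block of repeats, so whether the difference also covers the repeats cannot be told. The window from 29 to 30 kb lies partly within that block. In the window from 29 to 30 kb upstream, which holds the CG-dense block and 43 CpG sites, the level was 0.783 (0.581 to 0.903, 23 calls) in WT. The same window had a level of 0.147 (0.0899 to 0.232, 95 calls) in *Pld6* KO, against 0 (0 to 0.102, 34 calls) in *Dnmt3L* KO. WT was higher than *Pld6* KO by 0.635 (0.416 to 0.769) there, from at least 9 reads in WT and 15 in *Pld6* KO, and with these read numbers in place of calls the interval widened to 0.226 to 0.823. Of all 1263306 windows of 1 kb on the nuclear chromosomes with at least 10 calls in both libraries, 4370 (0.346%) had a difference as large or larger in this direction. The window had the largest difference of those compared in the control region. It was thus singled out by its value, and the share does not measure how rare such a region is.

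A window was called lower when the second library was lower by at least 0.3 with at least 10 calls in both. By this rule *Pld6* KO was lower in 2 of 17 windows of the control region, against 2.21% of such windows on the nuclear chromosomes, and none was higher by as much. The second of them, 36 to 37 kb upstream, lay exactly on the threshold, with 10 of 10 calls methylated in WT and 7 of 10 in *Pld6* KO, and the interval of its difference included 0 (-0.038 to 0.603). Just outside the threshold were the window from 30 to 31 kb, with a level of 0.522 in WT (23 calls) and 0.230 in *Pld6* KO (61 calls), a difference of 0.292 (0.066 to 0.498, or 0.0080 to 0.540 with the lowest number of reads), and the window from 40 to 41 kb, with 0.474 (19 calls) and 0.188 (32 calls), a difference of 0.286 (0.026 to 0.517, or -0.095 to 0.587 with the lowest number of reads). *Pld6* KO was the higher library in 9 of the 17 windows and WT in 8, and the median difference was -0.034. The largest difference in favour of *Pld6* KO was at 44 to 45 kb, with 12 of 16 calls methylated in WT and 24 of 24 in *Pld6* KO.

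Over the 2 windows from 29 to 31 kb together, chosen after their values were seen, the level was 0.652 in WT (46 calls, at least 24 reads). It was 0.179 in *Pld6* KO (156 calls, at least 48 reads), against 0 in *Dnmt3L* KO (43 calls, at least 13 reads). Of the 24 CpG sites there with calls in both WT and *Pld6* KO, the level was higher in WT at 22 and equal at 2. Neighbouring sites can share reads and the 2 windows were chosen by their values, so this count is not separate evidence. Without these 2 windows, the control region had a level of 0.652 in WT and 0.669 in *Pld6* KO, against 0.181 in *Dnmt3L* KO. The difference between WT and *Pld6* KO over the rest of the region was then -0.017 (-0.078 to 0.043), so WT was not higher outside the 2 windows. As these were chosen by their values, leaving them out had to lower the difference. The 2 windows hold 59 of the 281 CpG sites. They gave 10.95% of the calls of the region in WT and 20.03% in *Pld6* KO.

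**Figure D2:**
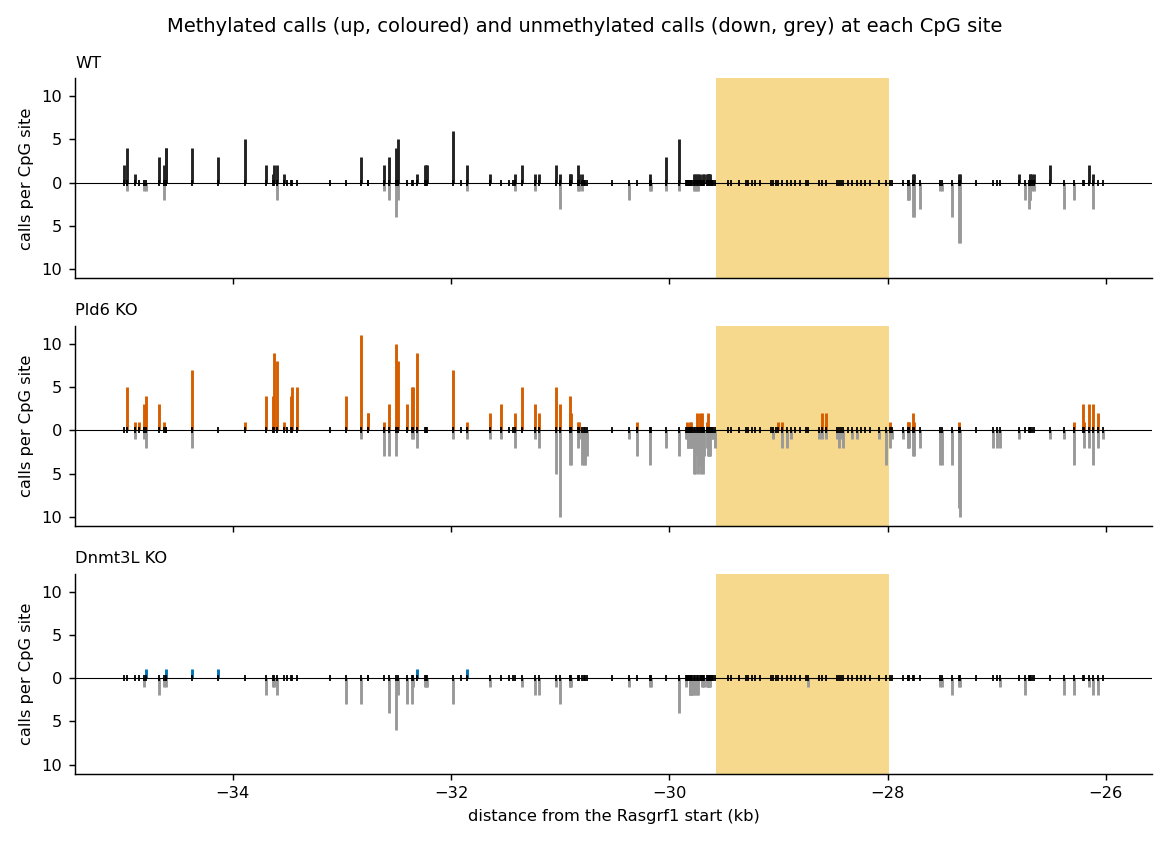
Calls at each CpG site from 26 to 35 kb upstream of the *Rasgrf1* start (x axis, kb), with methylated calls upward in colour and unmethylated calls downward in grey, for the 3 libraries. Ticks on the zero line mark every CpG site of the reference and the yellow band the block of repeats. Next to the band on its left, WT calls are mostly methylated, *Pld6* KO calls mostly unmethylated and *Dnmt3L* KO calls all unmethylated, and hardly any call falls in the band.

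The CG-dense block printed above was covered thinly in WT. There 13 of its 30 CpG sites had calls, 9 of them a single call and 4 of them 2 calls, which makes 17 calls from at least 3 reads, and 13 of the calls were methylated (0.765, 0.527 to 0.904). In *Pld6* KO all 30 sites had calls, and 13 of 90 calls were methylated (0.144, 0.0864 to 0.232, at least 11 reads), spread over 9 sites. With the lowest number of reads, the intervals were 0.265 to 0.967 in WT and 0.035 to 0.438 in *Pld6* KO. These overlap, so the block taken alone does not separate the 2 libraries. In *Dnmt3L* KO none of 30 calls at 20 sites was methylated (0, 0 to 0.114). From 29 to 31 kb, a stretch chosen after its values were seen, WT was also higher outside the block. Without it, the stretch from 29 to 31 kb had a level of 0.586 in WT (29 calls) and 0.227 in *Pld6* KO (66 calls), a difference of 0.359 (0.147 to 0.539, or 0.099 to 0.568 with the lowest number of reads). From 29 to 30 kb, the only site outside the block with calls in WT was that 29.907 kb upstream, just beyond the block. It had 5 of 6 calls methylated in WT, 0 of 3 in *Pld6* KO and 0 of 4 in *Dnmt3L* KO, and these calls are part of the values above. The other 23 WT calls outside the block lay in the window from 30 to 31 kb, just outside the threshold of 0.3.

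The repeats themselves could hardly be read in these libraries. The longest run of copies had 0 calls in WT, 7 calls in *Pld6* KO, all unmethylated, and 0 calls in *Dnmt3L* KO. The whole block of 1582 bp had 0, 28 and 1 calls at its 34 CpG sites, and 6 of the 28 calls in *Pld6* KO were methylated (0.214, 0.102 to 0.395). In *Pld6* KO the block had 0.824 calls per CpG site, against 2.77 in the control region as a whole. The methylation of the repeats in WT was therefore not measured here.

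The 2 sides of the repeats differed. On the far side, the 2 kb next to the array had a level of 0.688 (0.514 to 0.820, 32 calls, at least 17 reads) in WT. The same 2 kb had 0.167 (0.111 to 0.243, 120 calls, at least 33 reads) in *Pld6* KO, against 0 (0 to 0.0918, 38 calls) in *Dnmt3L* KO. WT was higher than *Pld6* KO by 0.521 (0.331 to 0.665, or 0.235 to 0.711 with the lowest number of reads). Part of these 2 kb lies in the less perfect copies, where *Pld6* KO had calls and WT had none. The 2 kb also include the window from 29 to 30 kb, so this difference is not separate evidence. The level of *Pld6* KO moved with the stretch chosen, to 0.254 in the 2 kb beside the whole block (WT 0.673) and 0.354 over 4 kb (WT 0.736). It was 0.375 over 1 kb, which lies wholly within the copies and where WT had no call. On the side of the gene, the 2 kb next to the array had a level of 0.2 in WT (70 calls) and 0.202 in *Pld6* KO (94 calls), against 0 in *Dnmt3L* KO (16 calls). The difference between WT and *Pld6* KO on this side was -0.0021 (-0.122 to 0.126). WT was thus itself mostly unmethylated on the side of the gene, with 0.0976 (41 calls) from 27 to 28 kb upstream and 0.345 (29 calls) from 26 to 27 kb, where *Pld6* KO had 0.131 (61 calls) and 0.394 (33 calls).

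**Figure D3:**
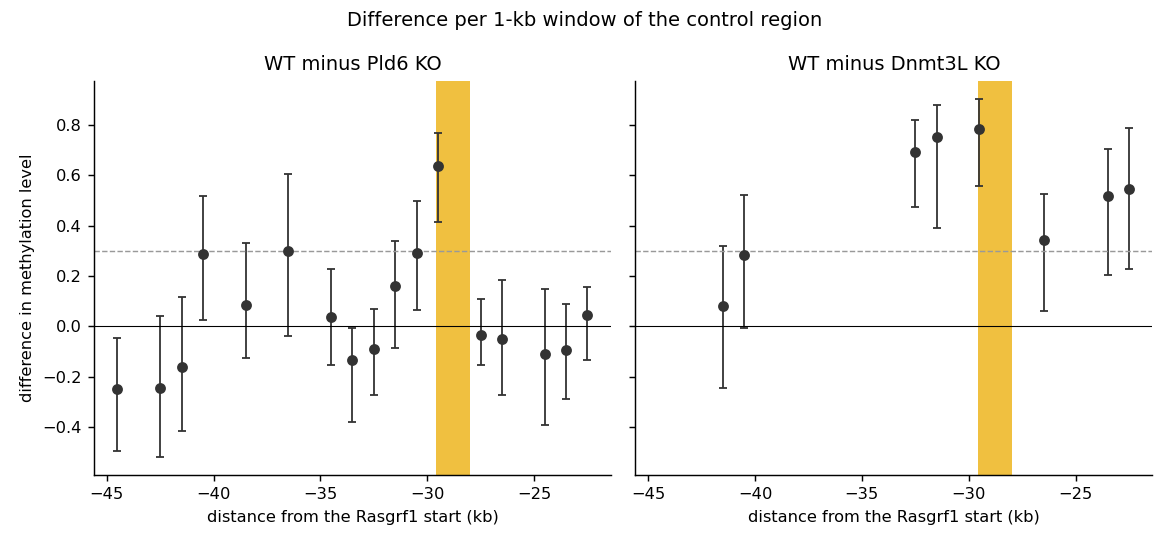
Difference in methylation level between WT and *Pld6* KO (left) and between WT and *Dnmt3L* KO (right) for each 1-kb window of the control region with at least 10 calls in both libraries, against the distance from the *Rasgrf1* start in kb. Bars are 95% Newcombe intervals, the dashed line marks a difference of 0.3 and yellow the block of repeats. The highest point for *Pld6* KO, at 0.635, is the window that holds the outer edge of the block of repeats. For *Pld6* KO 2 of 17 windows reach the dashed line, against 6 of 8 for *Dnmt3L* KO.

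Low levels in WT were not limited to the surroundings of the repeats. From 40 to 42 kb upstream, at the other end of the control region, WT had 0.261 (23 calls) in the farther and 0.474 (19 calls) in the nearer window. *Pld6* KO had 0.421 (19 calls) and 0.188 (32 calls) in these windows, so the order of the 2 libraries was opposite in them, and *Dnmt3L* KO had 0.182 (11 calls) and 0.190 (21 calls). Between the control region and the promoter, the windows from 8 to 10 kb upstream were low as well, with 0.276 (29 calls) and 0.333 (39 calls) in WT and 0.474 (38 calls) and 0.405 (37 calls) in *Pld6* KO. Of the 18 windows of the control region with at least 10 calls in WT, 4 were below 0.5 and 7 were above 0.8. The others lay between, such as 0.727 (33 calls) from 32 to 33 kb and 0.733 (30 calls) from 23 to 24 kb, and the highest included 1 (18 calls) from 22 to 23 kb.

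In *Dnmt3L* KO, most of the control region was little methylated. By the rule above, 6 of 8 windows with enough calls were lower than in WT, against 69.1% of the windows on the nuclear chromosomes, and 6 of 9 were lower than in *Pld6* KO, against 68.9%. Both shares are near their background. From 31 to 33 kb, where *Pld6* KO had levels of 0.682 (44 calls) and 0.818 (77 calls), *Dnmt3L* KO had 0.0909 (11 calls) and 0.0345 (29 calls), and WT had 0.842 (19 calls) and 0.727 (33 calls). From 24 to 31 kb, no call was methylated in *Dnmt3L* KO in any window, with 1 to 34 calls each. Of those 8 windows, the 2 that were not lower than in WT by 0.3 were those from 40 to 42 kb, where WT was itself low. In the window from 29 to 30 kb, the difference between *Pld6* KO and *Dnmt3L* KO was 0.147, and 85.4% of the windows on the nuclear chromosomes had one as large or larger between these 2 libraries.

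Pooled over their length, the flanks of the control region had no higher level in WT than in *Pld6* KO. From 45 to 70 kb upstream, mostly within the gene *4930524O08Rik*, WT had 0.878 (393 calls), *Pld6* KO 0.891 (605 calls) and *Dnmt3L* KO 0.274 (164 calls), and 0 of 18 windows were lower in *Pld6* KO. From 2 to 20 kb upstream it was 0.720 (261 calls), 0.796 (416 calls) and 0.288 (118 calls), and 0 of 10 windows were lower in *Pld6* KO. In this nearer flank *Pld6* KO was higher by 0.075 on calls (WT minus *Pld6* KO -0.075, -0.143 to -0.010), and with the lowest number of reads the interval included 0 (-0.159 to 0.0065). Windows with fewer than 10 calls in WT were not counted. Among them, that from 11 to 12 kb had 1 in WT (9 calls) and 0.571 in *Pld6* KO (14 calls). Its difference was 0.429 (0.060 to 0.674, or 0.029 to 0.700 with the lowest number of reads). That from 59 to 60 kb had the opposite order, with 0.667 in WT (6 calls) and 1 in *Pld6* KO (10 calls).

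**Figure D4:**
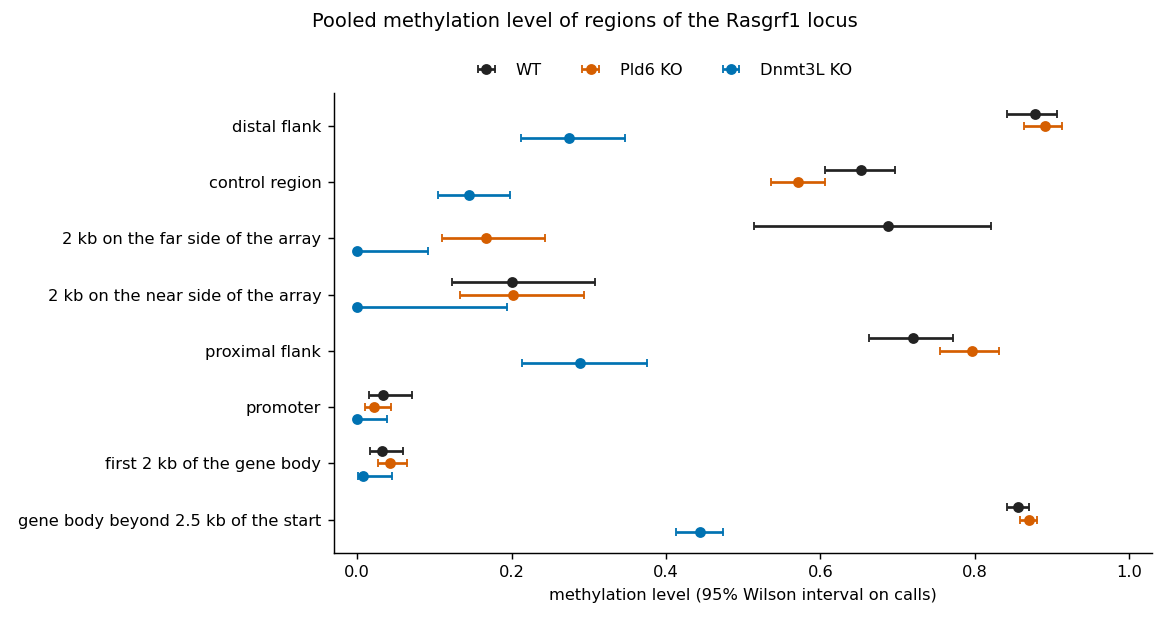
Pooled methylation level (x axis) of regions of the *Rasgrf1* locus in the 3 libraries, where bars are 95% Wilson intervals on the calls. On the far side of the repeat array the *Pld6* KO point (0.167) lies apart from the WT point (0.688), whereas on the near side both are at about 0.2 and the promoter is near 0 in all 3.

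The promoter, a CpG-rich sequence with 115 CpG sites, had a low pooled level in every library. Its level was 0.034 (0.016 to 0.072, 178 calls) in WT and 0.021 (0.010 to 0.044, 327 calls) in *Pld6* KO, against 0 (0 to 0.0385, 96 calls) in *Dnmt3L* KO. Its far part, from 1 to 2 kb upstream, had few calls and was higher in WT (0.364, 11 calls) and *Pld6* KO (0.217, 23 calls), but 0 in *Dnmt3L* KO (10 calls). The 300 bases printed above had 0 of 30 calls methylated in WT, 1 of 74 in *Pld6* KO and 0 of 19 in *Dnmt3L* KO. The low level continued into the first 2 kb of the gene body, with 0.032 in WT (283 calls) and 0.042 in *Pld6* KO (448 calls), against 0.0083 in *Dnmt3L* KO (121 calls). In the next window, from 2.5 to 3.5 kb inside the gene, WT had 0.839 (31 calls), *Pld6* KO 0.804 (56 calls) and *Dnmt3L* KO 0.111 (9 calls).

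Beyond 2.5 kb, the gene body was highly methylated in WT and in *Pld6* KO and less so in *Dnmt3L* KO. WT had 0.856 (2319 calls), *Pld6* KO 0.869 (3708 calls) and *Dnmt3L* KO 0.444 (1030 calls). The difference between WT and *Pld6* KO was -0.014 (-0.032 to 0.0042). Exons and introns beyond this point had 0.818 (319 calls) and 0.862 (2000 calls) in WT, 0.865 (504 calls) and 0.870 (3204 calls) in *Pld6* KO, while *Dnmt3L* KO had 0.354 (130 calls) and 0.457 (900 calls). Of the windows of 1 kb over the gene body, 1 of 83 was lower in *Pld6* KO, from 93.5 to 94.5 kb inside the gene (10 of 10 calls methylated in WT and 19 of 29 in *Pld6* KO), which is close to the background of 2.21%. In *Dnmt3L* KO, 35 of 46 windows of the gene body were lower than in WT, near the background of 69.1%.

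The gene body held 1 further low stretch. From 43.5 to 45.5 kb inside the gene, in 2 windows with 20 and 15 CpG sites, WT had 9 of 58 and 11 of 56 calls methylated (0.155 and 0.196). *Pld6* KO had 0.345 (55 calls) and 0.341 (44 calls), and *Dnmt3L* KO had 0.0645 (31 calls) and 0 (8 calls). The bin of 10 kb around it, from 40.5 to 50.5 kb, had a level of 0.498 in WT (219 calls) and 0.693 in *Pld6* KO (293 calls), whereas the bins further inside had 0.877 to 0.943 in WT and 0.880 to 0.924 in *Pld6* KO.

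Other regions methylated on the paternal copy were compared with *Rasgrf1* by their distances upstream of the RefSeq starts. Upstream of *H19*, a gene for a long noncoding RNA, the stretch from 2 to 4 kb had a level of 0.859 (184 calls) in WT and 0.884 (293 calls) in *Pld6* KO, against 0.148 (81 calls) in *Dnmt3L* KO. The region from 12 to 16 kb upstream of *Meg3*, another noncoding RNA gene, had 0.895 (258 calls), 0.924 (343 calls) and 0.363 (146 calls). Both were high in *Pld6* KO, with differences from WT of -0.025 (-0.091 to 0.035) and -0.029 (-0.078 to 0.017). The region from 8 to 16 kb upstream of *Zdbf2*, a gene expressed from the paternal copy, had 0.924 (144 calls), 0.814 (226 calls) and 0.263 (80 calls), and WT was higher than *Pld6* KO by 0.109 (0.038 to 0.174). Within it the window from 14 to 15 kb had 0.971 (34 calls, at least 13 reads) in WT and 0.632 (38 calls, at least 11 reads) in *Pld6* KO, the only window of these 3 regions with at least 10 calls in both libraries that was lower by 0.3. Pooled over its 25 kb, the *Rasgrf1* control region differed by 0.081 (0.023 to 0.137), and this interval overlaps that of the smaller *Zdbf2* region. The interval for the 2 kb on the far side of the *Rasgrf1* repeats (0.331 to 0.665) overlaps that of the *Zdbf2* window (0.159 to 0.4996).

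**Figure D5:**
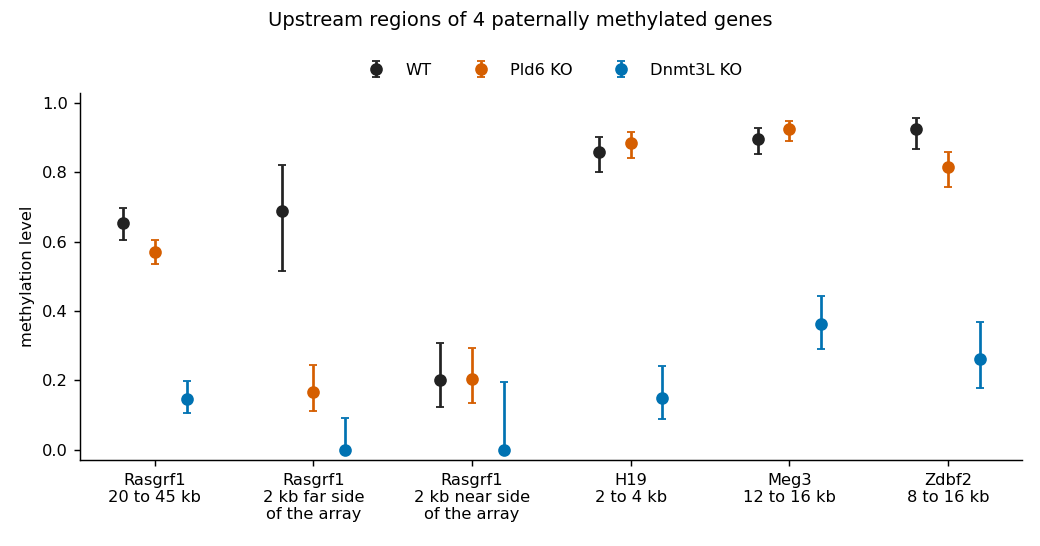
Methylation level (y axis) of the *Rasgrf1* control region, the 2 kb on both sides of its repeat array, and the regions upstream of *H19*, *Meg3* and *Zdbf2* in the 3 libraries, where bars are 95% Wilson intervals on the calls. In *Pld6* KO the 3 other regions, each pooled whole, are between 0.814 and 0.924, the *Rasgrf1* control region is at 0.571 and the 2 kb on the far side of its array at 0.167, while *Zdbf2* is lower than in WT by 0.109. In WT the 3 other regions are between 0.859 and 0.924, the control region is already lower at 0.652, and the far side of the array is at 0.688.

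Promoters of the other genes for Ras exchange factors were mostly low in every library. *Rasgrf2*, the closest relative of *Rasgrf1*, had a promoter level of 0.074 (230 calls) in WT and 0.066 (364 calls) in *Pld6* KO, against 0.034 (89 calls) in *Dnmt3L* KO. *Sos1* and *Sos2*, which couple receptor tyrosine kinases to Ras, and *Rasgrp1* and *Rasgrp2*, members of a family regulated by calcium and diacylglycerol, were between 0.017 and 0.168 in WT and between 0.026 and 0.153 in *Pld6* KO. *Rasgrp3* was at 0.783 (60 calls), 0.784 (74 calls) and 0.6 (10 calls), and *Rasgrp4* at 0.587 (75 calls), 0.543 (138 calls) and 0.233 (30 calls). Among the 7 promoters, the difference between WT and *Pld6* KO ranged from -0.065 (*Rasgrp2*) to 0.043 (*Rasgrp4*). *Rasgrp4* was the only promoter of the 7 lower by at least 0.3 in *Dnmt3L* KO.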

How the data were processed

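Spermatogonia were sorted at P7, and bisulfite libraries made with the PBAT method (adaptors added after bisulfite treatment) were sequenced in single reads of 100 bases. The study made replicates of every genotype. The 1 set of calls per genotype used here is treated as 1 library, and the labels do not say whether it holds 1 replicate or several. Both read ends and stretches of low base quality were cut off by the authors, who then mapped the rest with Bismark to mm10 (named in the submitters' processing notes without a version), keeping unique hits. Removal of duplicates is not given in the sources used here. The authors deposited, for each CpG site, listed once on the plus strand, the counts of methylated and unmethylated calls and the level as a fraction, which at all sites was methylated over total counts (tolerance 1e-09). From the counts, levels were pooled over regions with Python 3.11.15, numpy 2.4.6 and pandas 2.3.3. Gene starts and sequences came from RefSeq on GRCm38, the assembly of mm10, and every site on a nuclear chromosome fell on a CG of it. No coverage filter was set.

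The lowest number of reads is the largest sum of calls over sites at least 79 bp apart, the longest read left after trimming. Windows needed 10 calls in both libraries and a difference of 0.3. Alternatives were 5 or 20 calls, 0.2 or 0.4, windows shifted by 500 bp, of 500 bp or 2 kb, the curated mRNA start, sites with at most 20 calls, and a two-sided Fisher's exact test over all windows of 1 kb (adjusted p under 0.05), which compares libraries. Levels were also computed from sites with at least 3 or at most 20 calls and as the mean of site levels. Window calls, intervals and tests were tested on simulated windows. Their calls were drawn independently, so the effect of calls that share a read was not covered. Named were, by rule, *Rasgrf1*, the compared imprints, the exchange factor genes, the maternal imprints, neighbours with a difference of 0.3 or nearest to the gene, and the 3 genes most like *Rasgrf1* upstream. The members and lists were chosen with earlier results of these data known.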

Additional observations from a re-analysis of the deposited data

How the results depend on the processing

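The levels from 29 to 31 kb rest on at least 24 reads in WT and 48 in *Pld6* KO, and whether duplicate reads were removed is not known. Of 30 differences, 20 had an interval without 0 on calls and 18 with the lowest number of reads. Of 117 levels recomputed under alternatives 100 stayed within their interval, as did 102 of 119 differences. No paired analysis was possible because 1 library per genotype was analysed. The read-based intervals, the whole repeat block, the omission of 29 to 31 kb or of the printed block, sites shared by 2 libraries and the curated mRNA start were added after seeing the data. The causes of the shifts below were not tested.

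Among differences whose interval left out 0, direction turned in 2 cases: WT minus *Pld6* KO was -0.017 over the control region without 29 to 31 kb, and 0.0099 over the nearer flank with the mean of site levels. Of the differences near 0, WT minus *Pld6* KO also changed sign, to 0.0015 in the gene body and 0.070 on the near side of the array with the mean of site levels, and to 0.0077 in the farther flank with at least 3 calls. The mean of site levels gave the control region 0.509 in *Pld6* KO, with differences of 0.151 from WT and 0.345 from *Dnmt3L* KO. It gave the gene body 0.795 in WT and 0.793 in *Pld6* KO, the nearer flank 0.778 in WT, and the farther flank a difference of 0.520 between WT and *Dnmt3L* KO. At sites with calls in both libraries, the difference between WT and *Pld6* KO in the control region was 0.046 (-0.017 to 0.108). Without 29 to 31 kb, *Pld6* KO was at 0.669 and differed by 0.489 from *Dnmt3L* KO. Sites with at least 3 calls gave 0.0070 for the promoter in *Pld6* KO, 0.336 for the gene body in *Dnmt3L* KO with differences of 0.420 from WT and 0.443 from *Pld6* KO, 0.660 for the nearer flank in WT, 0.098 for the farther flank in *Dnmt3L* KO with differences of 0.801 and 0.793, a difference of 0.792 between WT and *Dnmt3L* KO at *H19*, and 0.250 at *Meg3* in *Dnmt3L* KO with differences of 0.667 and 0.670. A promoter of 1 kb gave 0.013 in WT. On the far side of the array, *Pld6* KO had 0.375 over 1 kb, 0.354 over 4 kb and 0.254 beside the whole block, where *Dnmt3L* KO differed by 0.375, 0.324 and 0.254. WT exceeded *Pld6* KO by 0.382 over 4 kb and by 0.419 beside the whole block, and over 1 kb WT had no call and gave no value. On the near side, 1 kb gave 0.0976 in WT and 0.129 in *Pld6* KO, and 4 kb gave 0.373 in *Pld6* KO and a difference of 0.373 from *Dnmt3L* KO. Windows lower in *Pld6* KO than WT numbered 1 of 7 with at least 20 calls (1.39% of all windows), 4 of 17 at a difference of 0.2 (5.95%), 1 of 17 at 0.4 (1.13%), 1 of 12 of 2 kb (2.17%) and 1 of 17, that from 29 to 30 kb, by Fisher's exact test with Benjamini-Hochberg adjustment (0.746%). Fisher's exact test takes calls as independent, and calls that share a read make its p-values too small. *Pld6* KO was higher in 2 windows at 0.2 and in 1 with at least 5 calls. In *Dnmt3L* KO, at least 5 calls gave 13 of 16 windows lower than WT (71.7%) and 11 of 16 lower than *Pld6* KO (71.1%), at least 20 calls gave 2 of 2 (57.3%) and 1 of 3 (58.5%), and 500-bp windows gave 3 of 5 against *Pld6* KO (62.5%).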

Other observations

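Around *Rasgrf1*, 18 other RefSeq genes start within 500 kb, and 15 of them had at least 10 calls in each library in their promoters. Of these 15, 6 differed by at least 0.3 between some pair of libraries, in each case with *Dnmt3L* KO lowest, against 50.2% of 39687 promoters of RefSeq genes by the same rule. *Mir184*, a microRNA gene at -107 kb from the *Rasgrf1* start, had 0.257 (105 calls) in WT and 0.340 (141 calls) in *Pld6* KO, against 0 (28 calls) in *Dnmt3L* KO. *Gm17944*, the nearest gene downstream, had 0.714 (49 calls), 0.950 (40 calls) and 0.231 (13 calls). *4930524O08Rik*, the nearest gene upstream with its start at -83.0 kb, had 0.596 (99 calls), 0.660 (97 calls) and 0.5 (18 calls). *9430062P05Rik* had 0.586, 0.6 and 0.235, and *Gm22866* had 0.591, 0.812 and 0.100. *Gm30849* and *Gm22717*, whose promoters overlap, had 0.323 and 0.308 in WT, 0.582 and 0.525 in *Pld6* KO, while *Dnmt3L* KO had 0.087 and 0.043. None of the 6 was lower in *Pld6* KO than in WT by 0.3.

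Other genes had much the same pooled levels as *Rasgrf1* from 20 to 45 kb upstream. Among 38414 other RefSeq genes with at least 100 calls there in every library, the 3 with the smallest Euclidean distance from the 3 levels of *Rasgrf1*, at least 1000000 bp apart, were *Olfr1376-ps1* (0.648, 0.574 and 0.137 in WT, *Pld6* KO and *Dnmt3L* KO), *Gm7028* (0.642, 0.569 and 0.142) and *Gm3774* (0.661, 0.566 and 0.155). A difference between WT and *Pld6* KO at least as large as that of *Rasgrf1* over these 25 kb was found upstream of 1604 genes, *Rasgrf1* included.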
